A study of Mus musculus with 24 samples.

Results

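The libraries labelled Hep-Orgs P5 and Hep-Orgs P10, 3 of each, were compared to see what moved in mouse hepatocyte organoids between passage 5 and passage 10 of culture. They were chosen by their labels alone and make up 6 of the 24 libraries of the series and 6 of the 12 in the hepatocyte table, which also holds primary hepatocytes and Hep-Orgs P1. Hep-Orgs are organoids grown in Matrigel from liver cells of young adult BALB/c mice that sedimented as hepatocytes on Percoll and were left after removal of cells bound by EpCAM beads. The study's methods give both passages 1 hepatocyte medium, containing the Notch pathway inhibitor DAPT, dexamethasone, the Wnt agonists CHIR99021 and R-spondin, and EGF, FGF and HGF ligands, so that culture time was the one labelled difference. Each replicate was stated to be an independent culture. The study's methods describe bulk sequencing of poly(A) RNA, though which preparation made these libraries is not settled, as given at the end. In such libraries fewer cells of a type and less RNA per cell cannot be told apart. The values were FPKM, fragments scaled to gene length and library size, from 18827825 to 19316707 recovered fragments in the P5 libraries and from 14068906 to 18022217 in the P10 libraries. All 3 P10 libraries were therefore shallower than all 3 P5 libraries.

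Hepatocytes make the plasma proteins, bile acids and drug-metabolising enzymes of the liver, and in organoid culture their growth depends on Wnt, EGF and HGF signals. Ribosomal proteins, chaperones, respiratory chain subunits and junction proteins are among the abundant messages in which small shifts can be measured best.

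The label was first set against its markers. Albumin (Alb) stood at 128, 109 and 107 FPKM at P5 and at 113, 112 and 110 FPKM at P10, ranked between 273 and 322 among all genes. The cholangiocyte keratin Krt19 stood at 235, 236 and 247 FPKM at P5 and at 244, 238 and 238 FPKM at P10, ranked between 132 and 141. The hepatocyte enzyme gene Cyp2e1 was listed at 0 in all 6 libraries, and Cps1, the entry enzyme of the urea cycle, was near 1 FPKM. The secreted duct and injury protein genes Mmp7 and Spp1 were at means of 10235 and 3054 FPKM at P5, and Epcam, the antigen removed by the beads, at 266 FPKM. On the other side, the plasma protein genes Ttr and Fga stood at means of 444 and 286 FPKM at P5, with Ttr ranked between 60 and 67. They were the most abundant of the 23 plasma protein and 22 coagulation genes listed, of which 11 and 16 fell below the expression filter. The hepatocyte genes Apoa1, Serpina1a, Tat and Afp averaged only 3.89, 0.19, 0.53 and 0.44 FPKM at P5. Hnf4a, a hepatocyte transcription factor, stood at 24.3 FPKM. The markers were thus mixed, and the duct genes and missing Cyp2e1 go against a purely mature hepatocyte label. The samples are named here as the submitters labelled them. Of the 11 hepatocyte markers examined 7 passed the expression filter, and of the 7 cholangiocyte markers 6 did. Markers of lymphocytes, sinusoidal endothelium, stellate cells, neutrophils and red cells all fell below it, and of the 6 macrophage markers Csf1r and Cd68 passed, while Clec4f, Adgre1 and Marco were listed at 0 in every library.

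Very little differed between the passages. Of 31053 genes listed, 10806 reached 1 FPKM in at least 3 of the 6 libraries and were tested with limma on log2(FPKM + 1), the scale of every fold change below. At an adjusted p under 0.05 (Benjamini-Hochberg) 3 genes differed, or 0.0278% of those tested, with 2 higher at P10 (0.0185%) and 1 lower (0.00925%). None passed when the replicate number was added as a block, or when only the 6 libraries were fitted. With any 1 library left out the count was 0, except that AC161199.1 alone passed without P5 replicate 1 and Rpl39 alone without P10 replicate 3. At an unadjusted p under 0.05 there were 1253 genes, 11.6% of those tested, with 582 higher at P10 (5.39%) and 671 lower (6.21%). After rescaling each library to TPM, which moved the median of all genes from 0.0006 to -0.0089, the unadjusted calls numbered 1235, of which 419 were higher. The split of these calls between directions therefore moved with the scaling.

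The fold changes were small across the whole transcriptome. Their SD over genes was 0.084 on the log2 scale, with a 5th percentile of -0.13 and a 95th of 0.11. The estimate exceeded 1.5-fold for 17 genes, of which 12 averaged under 5 FPKM and 11 carried predicted-gene symbols. The same comparison in the cholangiocyte organoid table, normalised separately, had an SD of 0.62, and 7006 of its 11195 tested genes passed the adjusted threshold, or 62.6%. Within the hepatocyte table the neighbouring comparisons were as narrow. P5 against P1 gave 0 adjusted calls and 427 unadjusted ones (3.95%) by limma. P10 against the primary hepatocyte libraries, fitted in the same way, gave 0 and 718 (6.64%). Those comparisons share libraries with P10 against P5, so their counts are not independent of it.

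**Figure D1:**
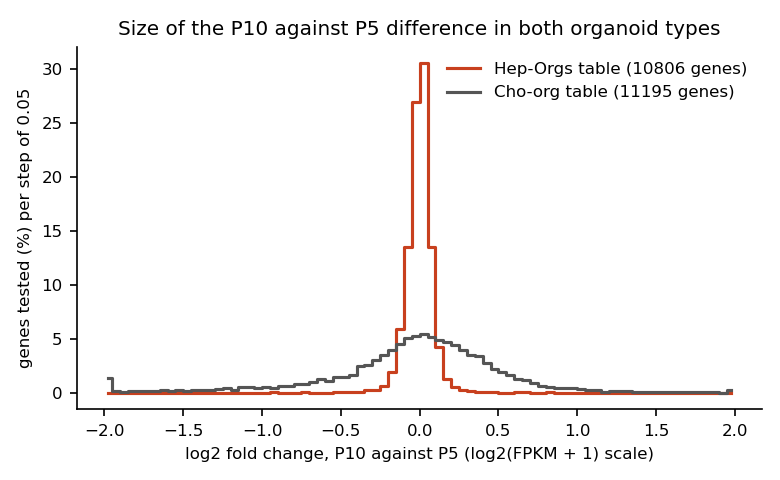
Share of tested genes (%) in each step of 0.05 of the log2 fold change, P10 against P5, for the hepatocyte organoid table (orange) and the cholangiocyte organoid table (grey), with changes beyond 2 placed in the end steps. The hepatocyte curve is narrow, with an SD of 0.084, and the cholangiocyte curve is broad, with an SD of 0.62.

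Constancy was measured from the intervals rather than from missed thresholds. The 95% confidence interval of the fold change lay wholly within 1.2-fold for 9377 genes (86.8%), within 1.5-fold for 10682 and within 2-fold for 10774. Among the 2311 genes averaging at least 20 FPKM it lay within 1.2-fold for 2259 (97.7%). With 0.1 FPKM added in place of 1, the count of all tested genes within 1.2-fold was 8137, and by voom on recovered fragments it was 7993. The steadiest abundant genes, taken as the 10 with the smallest SD over the 6 libraries among those of at least 100 FPKM, were C3, Slc6a6, Eif4b, Ctnnb1, Txnip, Acly, Gabrp, Rps9, Paics and Sat1. Eif4b, a helicase cofactor of translation initiation, read 234, 234 and 235 FPKM at P5 and 236, 237 and 236 FPKM at P10. Ctnnb1, which encodes the Wnt effector beta-catenin, read 171, 172 and 171 FPKM at P5 and 169, 170 and 171 FPKM at P10. Both had groups that did not overlap, with differences of 0.012 ± 0.018 and -0.010 ± 0.015.

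The libraries themselves were nearly interchangeable in rank. Spearman correlations over the tested genes ran from 0.9950 to 0.9960 among the 6 libraries, and from 0.9950 to 0.9968 among all 12, primary hepatocytes included. The mean distance between a P5 and a P10 library, taken as 1 minus Spearman's rho, was 1.08 times the mean distance within a passage. The true grouping gave the largest gap of the 10 ways to split 6 libraries into 3 and 3 (exact permutation test, one-sided, p = 0.1, the smallest it allows). After centring along GC that ratio was 1.04. Recovered fragments differed between libraries of the same passage by more than counting alone, with a chi-square per degree of freedom of 1.97 to 2.58, against 2.19 to 3.28 for the 9 pairs across passages. The median SD within a passage was 0.033 on the log2 scale for genes of at least 20 FPKM, where counting alone gave 0.028, and 0.055 over all tested genes, where counting gave 0.058.

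The genes past the adjusted threshold were Rpl39, Rps25 and AC161199.1. Rpl39 (chrX:37082520-37085402, mm10), a short basic protein at the exit tunnel of the large ribosomal subunit, read 172, 165 and 173 FPKM at P5 and 241, 217 and 209 FPKM at P10. Its groups did not overlap, and it rose by 0.38 ± 0.05 (log2 fold change ± SE, adjusted p = 0.030 by limma). The coding sequence, from GENCODE M21 on GRCm38, is shown with G and C in capitals because base composition returns below.
Rpl39: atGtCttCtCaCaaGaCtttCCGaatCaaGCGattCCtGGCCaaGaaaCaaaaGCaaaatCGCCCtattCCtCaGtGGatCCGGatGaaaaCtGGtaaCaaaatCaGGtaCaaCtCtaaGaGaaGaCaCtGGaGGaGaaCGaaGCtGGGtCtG
Rps25, a protein of the small subunit, read 172, 174 and 177 FPKM at P5 and 198, 195 and 192 FPKM at P10, and rose by 0.16 ± 0.02 (adjusted p = 0.039 by limma). The P5 and P10 libraries did not overlap here either. AC161199.1 (chr15:80012331-80042457), an RNA antisense to the growth factor gene Pdgfb, read 1.16, 1.80 and 1.77 FPKM at P5 and 0.57, 0.49 and 0.53 FPKM at P10. It fell by 0.74 ± 0.09 (adjusted p = 0.030 by limma) at a level close to the filter, and its least sampled library held 5 fragments. At that level the fold depends on the added 1 FPKM, and it was -1.40 with 0.1 added and -1.47 by voom (adjusted p = 0.052). Whether the counting used strand was not given in the sources used here.

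Beside these, 10 genes in each direction were named by the smallest unadjusted p among those averaging at least 5 FPKM whose passages did not overlap. Non-overlap itself was common, at 1856 genes or 17.2%, with 928 higher at P10 (8.59%) and 928 lower (8.59%). The higher set held Rpl39, Rps25, Nmt1, Dbi, Prdx1, Timm21, Rps16, Rpl35, Pum3 and Rexo2, and the lower set held Sema4g, Rplp2, S100a1, S100a11, Chpf2, Srebf1, Agrn, Rps18, Tmprss4 and Gcn1l1. Of these 20 only Rpl39 and Rps25 passed the adjusted threshold, and the others are given as values.

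Nmt1, which attaches myristate to proteins, stood at 19.99, 19.7 and 20.1 FPKM at P5 and at 22.5, 21.9 and 22.4 FPKM at P10, a difference of 0.15 ± 0.02. Dbi, the acyl-CoA binding protein, stood at 126, 129 and 124 FPKM at P5 and at 154, 145 and 144 FPKM at P10, a difference of 0.23 ± 0.04. Prdx1, a peroxide scavenger, stood at 205, 210 and 208 FPKM at P5 and at 229, 226 and 225 FPKM at P10. In each of the 3 the lowest P10 library stood above the highest P5 library. Rexo2, a mitochondrial exonuclease, was higher by 0.24 ± 0.05, Pum3 by 0.16 ± 0.03 and Timm21, of the inner-membrane import machinery, by 0.16 ± 0.03.

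On the lower side, S100a11, a calcium-binding protein, stood at 583, 592 and 573 FPKM at P5 and at 547, 530 and 530 FPKM at P10. Its relative S100a1 stood at 84.8, 89.1 and 88.2 FPKM at P5 and at 74.4, 75.1 and 74.8 FPKM at P10, a difference of -0.22 ± 0.04. Srebf1, the transcription factor of fatty acid synthesis, stood at 22.98, 23.5 and 22.6 FPKM at P5 and at 20.5, 19.998 and 20.9 FPKM at P10. All 3 genes were lower in every P10 library than in any P5 library. Agrn, a basement membrane proteoglycan, differed by -0.097 ± 0.020, Sema4g, a semaphorin, by -0.15 ± 0.03 and Chpf2, which polymerises chondroitin chains, by -0.21 ± 0.04.

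The libraries labelled primary hepatocytes carried the same duct markers as the organoids, with means of 237 FPKM for Krt19, 269 for Epcam and 3144 for Spp1 and 0.010 for Cyp2e1, so their label is open to the same doubt. For 18 of the 20 named genes their mean was nearer to the P10 mean than to the P5 mean, and for 17 of the 20 the P1 mean was nearer to P5. Rpl39 averaged 216 FPKM in primary hepatocytes, 190 at P1, 170 at P5 and 222 at P10. S100a11 averaged 550, 586, 583 and 536 FPKM in the same order. Since the genes were picked for their P5 and P10 values, the counts are a description only.

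**Figure D2:**
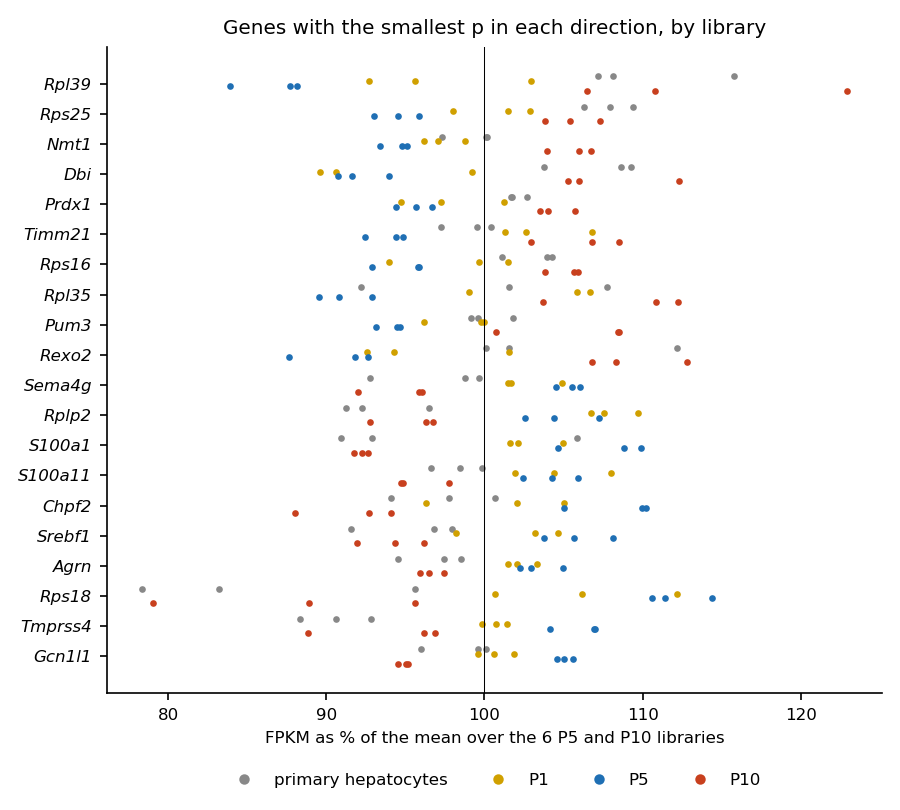
FPKM of the 20 named genes as a percentage of their mean over the 6 P5 and P10 libraries, 1 point per library, in primary hepatocytes (grey), P1 (yellow), P5 (blue) and P10 (orange). The passages do not overlap for any of them, as the choice required, and most primary hepatocyte points lie on the P10 side, with Rpl39 at a mean of 216 FPKM against 222 at P10.

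Ribosomal protein genes differed often, and in both directions. The ribosome is built of a small 40S and a large 60S subunit, and its protein genes are usually expressed in step. Of 46 tested 60S genes 13 were higher and 7 lower at an unadjusted p under 0.05, and of 31 tested 40S genes 8 were higher and 4 lower. That is 32 of 77, against 18.3% of genes of at least 20 FPKM, where 11.1% were higher and 7.14% lower. The 60S and 40S genes had median levels of 266 and 299 FPKM, so that set does not match them in level. Over all genes 11.6% were called, so the share called rose with level. The median fold changes stayed near 0, at -0.00054 for 60S and 0.016 for 40S. They stood beside 0.0006 for all genes and 0.010 for those of at least 20 FPKM. Along GC the 60S and 40S medians became 0.014 and 0.025. Of the 40S genes 20 of 31 were higher, and 22 along GC, while the 60S genes split 22 to 24.

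Higher 60S genes beside Rpl39 included Rpl35, at 169, 167 and 173 FPKM at P5 and 207, 209 and 193 FPKM at P10, a difference of 0.26 ± 0.05. Rpl37, Rpl38 and Rpl26, named here after their values were seen, differed by 0.20, 0.19 and 0.23. Among 40S genes Rps16 stood at 287, 278 and 287 FPKM at P5 and at 316, 317 and 310 FPKM at P10. None of these overlapped between passages. Lower members were the acidic stalk proteins Rplp1 and Rplp2, which recruit elongation factors, with differences of -0.13 ± 0.04 and -0.14 ± 0.03. The largest ribosomal difference was in Rpl17, also named after its values were seen, at 547, 584 and 710 FPKM at P5 and 408, 299 and 374 FPKM at P10. Its difference of -0.77 carried an SE of 0.34. Rps18 and, likewise named after its values were seen, Rps2 were lower by 0.34 and 0.30 at means of only 19.8 and 24.2 FPKM at P5.

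Ribosomal protein genes have many copies, and how reads shared among them were counted is not given in the sources used here, so these values are uncertain. Of the 77 genes 72 shared at least 1 identical stretch of 100 bases with another annotated gene, and 20 shared at least 50% of their stretches. Rpl17 shared 42.4% of its stretches, with 16 other genes, Rps2 43.8%, with 36, and Rps18 47.3%, with 7. These genes thus fell just under 50%, whereas Rpl39 shared only 1.75% of its stretches, with 1 gene. Of the 20 sharing at least 50%, 4 were higher and 2 lower at an unadjusted p under 0.05, with a median absolute fold change of 0.036. Of the 57 sharing less, which include Rpl17, Rps2 and Rps18, 17 were higher and 9 lower, with 0.066. Whether shared reads had a part in these calls was not tested.

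The clearest pair was Rps27, a zinc-binding protein of the small subunit, and its retrogene Rps27rt, named after its values were seen. Rps27rt had the largest rise of any tested gene, a difference of 1.29 ± 0.39, yet its libraries read 134, 71.1 and 86.7 FPKM at P5 and 119, 508 and 205 FPKM at P10, with an overlap and 1 high library. Rps27 read 353, 368 and 373 FPKM at P5 and 366, 287 and 334 FPKM at P10, lowest in that same library. Their coding sequences are identical over all 252 bases compared, and the shared sequence is printed once to show why reads within it have no unique place.
Rps27: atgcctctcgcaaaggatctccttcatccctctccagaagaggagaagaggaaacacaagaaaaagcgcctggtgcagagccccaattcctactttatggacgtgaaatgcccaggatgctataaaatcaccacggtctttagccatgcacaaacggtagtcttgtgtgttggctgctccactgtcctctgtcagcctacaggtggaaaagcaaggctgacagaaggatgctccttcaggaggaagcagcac
Summed over both genes, the fragments scaled to library depth were 418, 411 and 422 at P5 and 426, 489 and 425 at P10, a log2 ratio of 0.10 between the means. The difference of 1.29 in the retrogene was thus far larger than that of the pair.

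**Figure D3:**
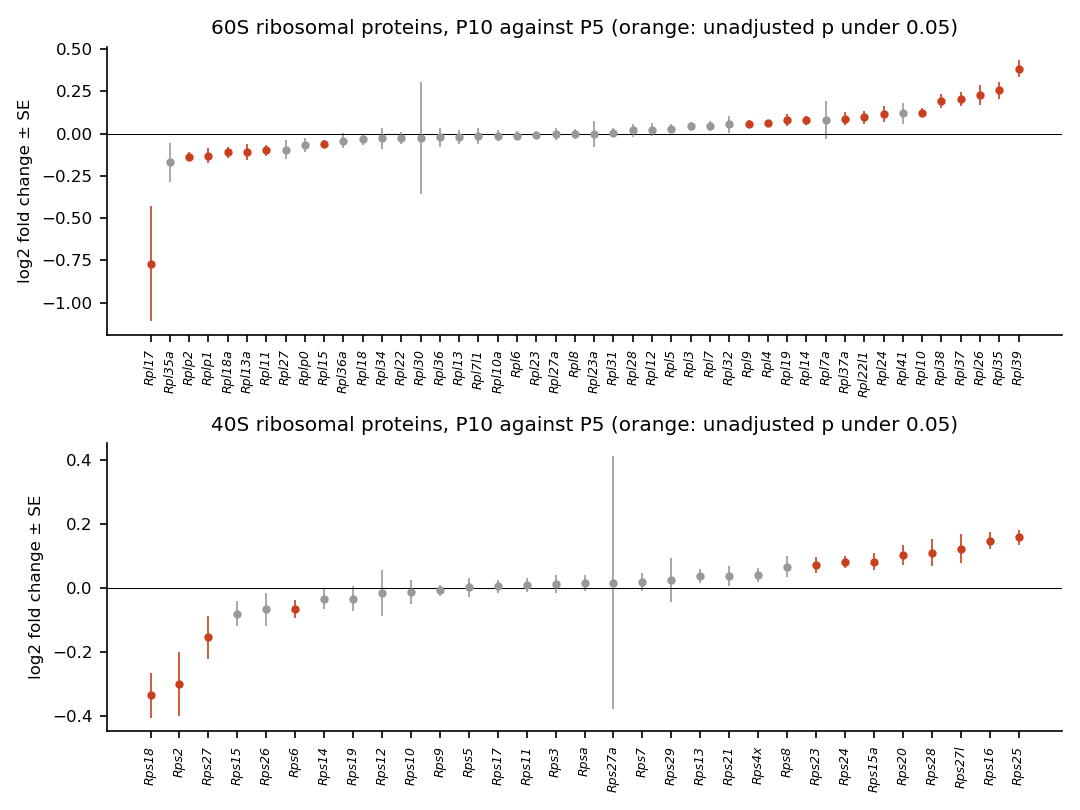
Log2 fold change of each tested 60S (top) and 40S (bottom) ribosomal protein gene, P10 against P5, with bars of 1 SE, sorted within each panel, and orange where the unadjusted p was under 0.05. Both subunits show tails on either side of 0, from -0.77 for Rpl17 to 0.38 for Rpl39 in the 60S panel.

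Over the rest of the transcriptome the fold change followed base composition. Transcript GC content was known for 10795 of the tested genes. Across genes, which are not independent replicates and share the same 6 libraries, Spearman's rho between GC and the fold change was -0.35 over all 10795 and -0.47 over the 2309 of at least 20 FPKM. With gene length it was 0.0035 over the same 10795 genes. In the decile of abundant genes poorest in GC (31.9 to 42.3%) 192 of 231 were higher at P10, with a median of 0.038. In the decile richest in GC (57.1 to 67.1%) 179 of 231 were lower, with a median of -0.045. In between, the median turned from positive to negative between the deciles of median GC 50.9% and 52.5%.

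Coding sequence from members of the named set shows the contrast. The first 120 coding bases (GENCODE M21, GRCm38) of 2 higher genes low in GC and of the 2 lower genes richest in GC are given with G and C in capitals. Timm21, the higher gene poorest in GC at 41.8% of its transcript, is not printed.
Prdx1: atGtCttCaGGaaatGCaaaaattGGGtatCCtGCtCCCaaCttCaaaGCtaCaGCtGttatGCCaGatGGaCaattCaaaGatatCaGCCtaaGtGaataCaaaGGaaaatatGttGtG
Pum3: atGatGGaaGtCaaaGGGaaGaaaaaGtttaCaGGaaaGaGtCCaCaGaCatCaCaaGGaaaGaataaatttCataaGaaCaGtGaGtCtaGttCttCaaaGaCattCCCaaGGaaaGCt
Chpf2: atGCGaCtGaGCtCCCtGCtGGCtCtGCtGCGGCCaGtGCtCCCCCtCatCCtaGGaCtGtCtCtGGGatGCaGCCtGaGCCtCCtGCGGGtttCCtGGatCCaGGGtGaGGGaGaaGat
Srebf1: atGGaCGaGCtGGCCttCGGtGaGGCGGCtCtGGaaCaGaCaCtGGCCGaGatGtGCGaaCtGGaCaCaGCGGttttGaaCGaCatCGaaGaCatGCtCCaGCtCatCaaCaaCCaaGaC
Of the bases shown 38.3% in Prdx1 (chr4, forward strand) and 36.7% in Pum3 (chr19, reverse strand) are G or C, against 62.5% in Chpf2 (chr5, forward strand) and 55.8% in Srebf1 (chr11, reverse strand). Over the whole coding sequence the shares were 42.7%, 47.5%, 60.8% and 60.9% in the same order, so the stretch shown makes Pum3 look poorer in GC than it is.

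The GC relation was also a property of single libraries. A slope was fitted in each library for genes of at least 20 FPKM, as log2 units per 10 percentage points of GC relative to the mean of all 12 libraries. The slopes were 0.0185, 0.0220 and 0.0317 at P5 and -0.0044, -0.0382 and -0.0207 at P10. The groups did not overlap, with a difference of -0.045 (exact permutation test, two-sided, p = 0.1, the smallest that 3 against 3 allows). Slopes ran from 0.0096 to 0.0387 at P1 and from -0.0668 to 0.0090 among the primary hepatocyte libraries, where the range of 0.0757 within one group exceeded the difference between P5 and P10. The part that library preparation or culture had in this slope was not tested. All 3 P10 libraries were also shallower, and depth and passage cannot be told apart here.

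**Figure D4:**
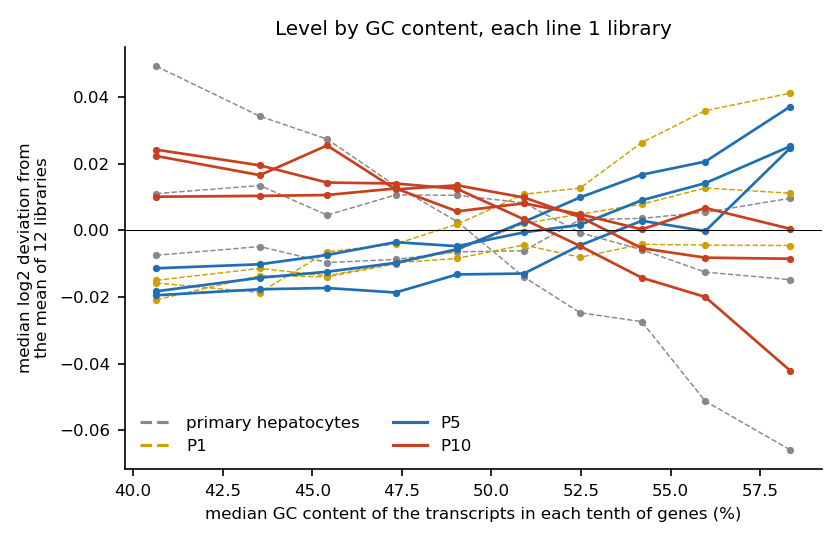
Median log2 deviation from the mean of all 12 libraries in deciles of genes of at least 20 FPKM, against the median GC content (%) of each decile, 1 line per library. The P5 lines (blue) climb and the P10 lines (orange) fall with GC, with a difference in slope of -0.045 per 10 points, while the dashed primary hepatocyte lines span a range of 0.0757.

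Centring each library along GC, an alternative chosen after seeing the data, left 962 genes at an unadjusted p under 0.05 (8.90%), of which 497 were higher (4.60%) and 465 lower (4.30%). Of the 1253 earlier calls 740 kept their call and direction. Rpl39, Rps25 and AC161199.1 stayed past the adjusted threshold, at 0.37, 0.15 and -0.73, and Nmt1 joined them. All 20 named genes kept an unadjusted p under 0.05. Of the 32 ribosomal protein calls 26 kept theirs in the same direction.

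The lists of translation factors, chaperones and unfolded protein genes had medians above that of all genes, 0.0006. The median of genes of at least 20 FPKM was 0.010. Of 62 translation initiation and elongation factors 44 were higher, with a median of 0.025. The 7 of them higher at an unadjusted p under 0.05, with none lower, make 11.3%, near the 11.6% called over all genes and the 11.1% higher among genes of at least 20 FPKM. Eif4a2, the helicase of cap-dependent initiation, stood at 188, 188 and 186 FPKM at P5 and at 194, 194 and 196 FPKM at P10. Of 24 heat shock protein and chaperonin genes 20 were higher, with 6 higher and 1 lower at that threshold, or 29.2% called, and a median of 0.041. Hsp90b1, the chaperone of the endoplasmic reticulum, stood at 329, 329 and 329 FPKM at P5 and at 354, 352 and 345 FPKM at P10, a difference of 0.089 ± 0.017. The lower one was inducible Hspa1b, at 51.1, 52.5 and 51.7 FPKM at P5 and 49.2, 48.7 and 49.8 FPKM at P10. After centring along GC the medians were 0.017 for the factors and 0.039 for the chaperones, beside 0.0003 for all genes. Along GC 6 chaperone genes were still higher at that threshold. In the unfolded protein list of 32 genes 20 were higher, with a median of 0.015 that became 0.0037 along GC, among them Atf4, the transcription factor of the integrated stress response, at 55.5, 58.6 and 61.3 FPKM at P5 and 63.4, 63.4 and 63.0 FPKM at P10.

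Energy lists stood on either side of 0. Of 13 protein genes of the mitochondrial genome, which has low GC content (median 37.1%), 12 were higher, with a median of 0.054 that became 0.031 along GC. The 2 of them past an unadjusted p of 0.05 make 15.4%, beside 11.6% over all genes. The most abundant, mt-Co1 of cytochrome oxidase, differed by 0.036 ± 0.025, and mt-Nd6, read from the opposite strand, stood at 2408, 2406 and 2369 FPKM at P5 and 2578, 2571 and 2810 FPKM at P10. Of 24 nuclear genes of complexes II to IV 14 were higher, with 5 higher and 1 lower at that threshold (25.0% called). Their median was 0.022, beside 0.010 for genes of at least 20 FPKM. Uqcr10 and Uqcrq, subunits of complex bc1, differed by 0.18 ± 0.05 and -0.20 ± 0.06. Of the 35 tested complex I genes 5 were higher and 2 lower at an unadjusted p under 0.05, or 20% called. Their median level was 26.6 FPKM, and 18.3% of genes of at least 20 FPKM were called. Of the 77 mitochondrial ribosomal protein genes 2 were higher and 7 lower at that threshold. That is 11.7% called, near the 11.6% over all genes. Of 18 glycolysis genes 13 were lower, 3 of them at that threshold (16.7% called), with a median of -0.030. Pgk1, the most abundant, differed by -0.014 ± 0.018. The glycolysis median became -0.0063 along GC, and its count at that threshold became 0.

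Growth-response lists had medians slightly below 0. Of 25 immediate early genes 15 were lower and 10 higher, with a median of -0.020 (-0.013 along GC), and 5 were lower at an unadjusted p under 0.05, beside 6.21% of all genes and 7.14% of those of at least 20 FPKM. Fos, a subunit of the AP-1 factor, stood at 95.5, 105 and 101 FPKM at P5 and at 92.4, 93.6 and 89.0 FPKM at P10, so that the highest P10 library lay just under the lowest P5 library. Along GC the count was 2 of 25. Among 23 genes of EGF and HGF signalling 4 were lower and none higher at that threshold (17.4% called), and along GC none was. Met, the HGF receptor, stood at 34.0, 33.6 and 33.7 FPKM at P5 and at 34.8, 34.7 and 34.6 FPKM at P10, higher in each. Of 24 cell cycle inhibitor and p53 target genes 17 were lower, 3 at that threshold (12.5% called). Gadd45g was among these 3, with a difference of -0.13 ± 0.04, while Trp53 itself differed by 0.18 ± 0.09.

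Proliferation lists had medians near 0, at low levels. The median level was 2.86 FPKM for replication and 1.43 FPKM for mitosis genes, where the added 1 FPKM shrinks the fold. The 33 replication genes had a median of 0.0041, with 3 higher and 3 lower at an unadjusted p under 0.05 (18.2% called). The 27 mitosis genes had a median of 0.0059, with 1 higher and none lower (3.70% called). Over all genes 11.6% were called. Mki67, the proliferation antigen, stood at 2.55, 2.29 and 2.71 FPKM at P5 and at 2.27, 2.60 and 2.89 FPKM at P10. Cdk1, the mitotic kinase, averaged 3.15 ± 0.25 FPKM at P5 and 3.54 ± 0.28 FPKM at P10 (SD, n = 3 each), with overlapping groups. Pcna, the replication clamp and the most abundant of its list, differed by 0.078 ± 0.044. In the cholangiocyte table Mki67 fell by 2.88 between the same passages (adjusted p = 7.1e-08 by limma). It started there from a mean of 15.8 FPKM, where the added 1 FPKM shrinks the fold less.

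Hepatocyte lists differed among themselves. The 15 tested hepatocyte transcription factors had a median of -0.020 (0.013 along GC) and none passed an unadjusted p of 0.05. Hnf4a, the central one, stood at 23.8, 23.5 and 25.7 FPKM at P5 and at 24.04, 24.6 and 23.3 FPKM at P10. The 12 tested plasma protein genes had a median of 0.0035, with haptoglobin (Hp) lower at a difference of -0.20 ± 0.06. Of 79 cytochrome P450 genes 24 passed the filter, and 16 of these were lower, 4 at that threshold and none higher, or 16.7% against 6.21% lower over all genes. The median of -0.017 became -0.022 along GC, with 17 lower and the count still 4. Of the 10 tested complement genes 8 were lower (6 along GC), 1 at that threshold. Cyp3a25 stood at 2.79, 2.52 and 2.64 FPKM at P5 and at 2.22, 1.97 and 2.27 FPKM at P10. The most abundant, Cyp2d10, differed by -0.089 ± 0.068, and Cyp1a2 and Cyp3a11 by 0.078 ± 0.062 and 0.12 ± 0.08. Of 30 phase II enzymes 4 were higher and 5 lower at that threshold, or 30.0% called against 11.6% of all genes. Along GC 2 of the 30 were higher and 3 lower, against 8.90% of all genes called. The glutathione transferase Gsta1 had the widest gap of that list, at 1.31, 3.18 and 2.83 FPKM at P5 and 1.04, 0.45 and 0.81 FPKM at P10, where its least sampled library held 7 fragments.

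The urea cycle and amino acid catabolism list had a median below 0. It had 12 tested genes, 8 of them lower and 2 at an unadjusted p under 0.05. That is 16.7% called, against 11.6% of all genes and 18.3% of those of at least 20 FPKM. The list median of -0.025 became -0.044 along GC, where 9 were lower and 2 kept that threshold. No list with at least 10 tested genes had a lower median along GC. Gpt, an alanine transaminase, stood at 21.4, 21.1 and 21.1 FPKM at P5 and at 18.6, 18.9 and 18.4 FPKM at P10. Every P10 library of Gpt lay below every P5 library. The 21 cholesterol synthesis genes had a median of -0.018, with 1 higher and 2 lower at an unadjusted p under 0.05, or 14.3% called. Of 15 fatty acid synthesis genes 4 were lower and 1 higher at that threshold, or 33.3% called against 18.3% of genes of at least 20 FPKM. Along GC 2 were lower and 1 higher, and the list median changed from 0.0029 to -0.0068. Srebf1 was on the lower side and Scd2, a desaturase, on the higher side at 0.055 ± 0.020. The 16 genes of fatty acid oxidation had a median of 0.0017.

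Epithelial structure genes stayed close to their P5 levels. All 21 tested keratin and biliary marker genes, all 21 tight junction genes, all 15 of adherens junctions and desmosomes and all 29 of the actin cytoskeleton had a 95% interval within 1.2-fold. That share was 97.7% over all genes of at least 20 FPKM, and all 24 chaperone and all 32 unfolded protein genes did the same, so it is not particular to structure genes. Krt8 differed by -0.011 ± 0.027, Krt19 by 0.0021 ± 0.025, Krt7 by -0.0062 ± 0.031 and Sox9 by 0.020 ± 0.028. Epcam, the surface antigen used to separate duct cells, was nonetheless higher at every P10 library, with 266, 261 and 269 FPKM at P5 and 276, 279 and 278 FPKM at P10. Cldn3, a barrier claudin rich in GC, stood at 87.2, 90.7 and 93.1 FPKM at P5 and at 79.7, 79.5 and 82.9 FPKM at P10. Among the 24 tested laminin, collagen and integrin genes 1 was higher and 4 lower at an unadjusted p under 0.05. That is 20.8% called, against 11.6% of all genes and 18.3% of those of at least 20 FPKM. Lama5 was among the lower ones, at a difference of -0.11 ± 0.03.

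Signalling and immune lists gave no common direction. The 13 Wnt target genes had a median of 0.0091, and Lgr5 and Axin2, both induced by Wnt, differed by -0.013 ± 0.053 and -0.043 ± 0.049. The 18 Notch genes had a median of 0.0045, the 25 Hippo genes -0.0064 and the 21 TGF-beta and BMP genes -0.0063. Glucocorticoid targets were mixed, with Mt1, a metallothionein, at 711, 679 and 698 FPKM at P5 and 657, 613 and 636 FPKM at P10, and the kinase Sgk1 at 170, 170 and 168 FPKM at P5 and 177, 177 and 174 FPKM at P10. Of 33 interferon-stimulated genes 3 were higher and 3 lower at an unadjusted p under 0.05, or 18.2% called against 11.6% of all genes. The 16 chemokine and cytokine genes had the lowest median of the lists with at least 10 tested genes, at -0.031. At that threshold 2 were lower and none higher, or 12.5% called, near the share of all genes.

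**Figure D5:**
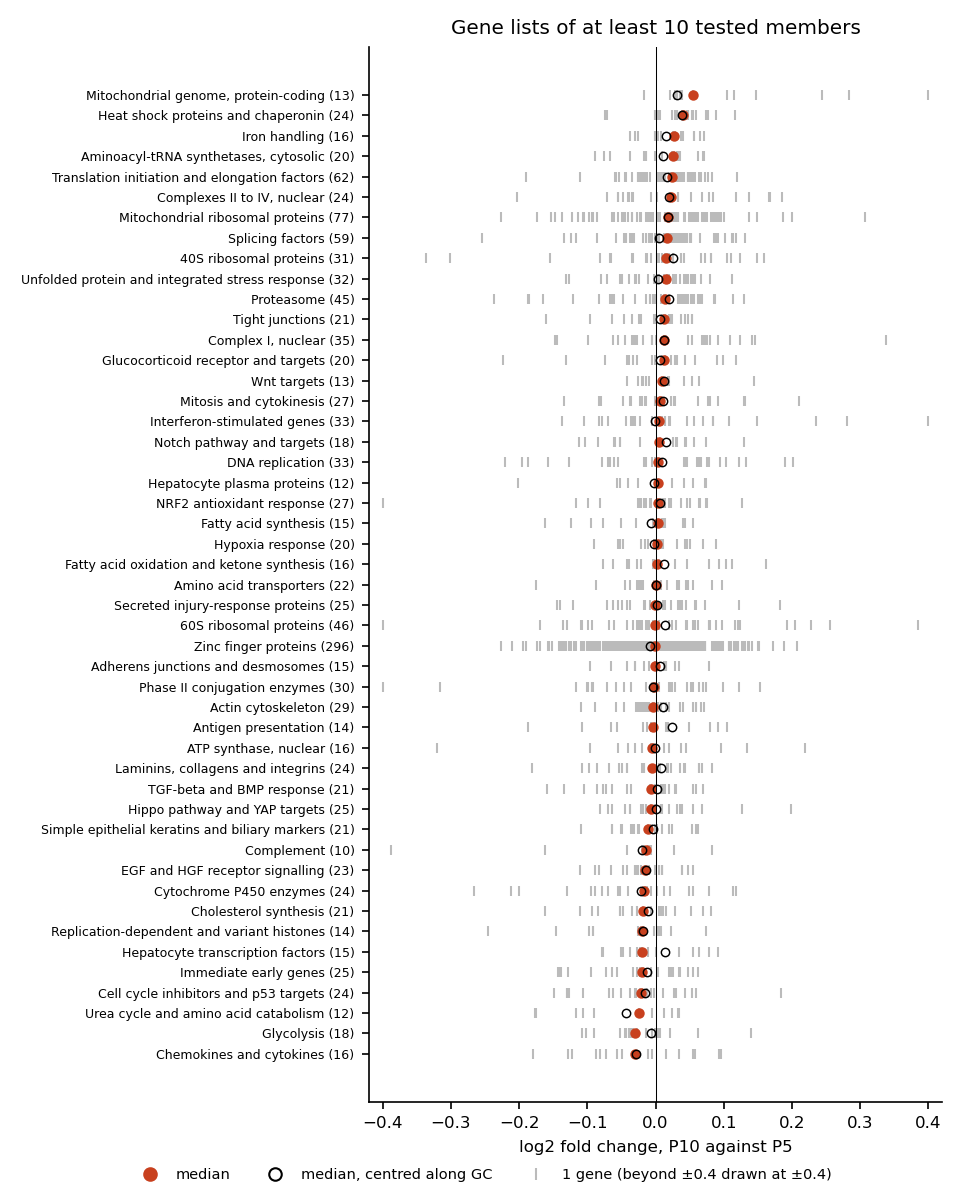
Log2 fold change, P10 against P5, of each tested gene (grey ticks) in lists of at least 10 tested members, with the median as reported (orange) and after centring along GC (open circles). List medians run from -0.031 for chemokines and cytokines to 0.054 for the mitochondrial genome, within a fold change of a few percent of the all-gene median of 0.0006.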

How the data were processed

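The study's methods describe poly(A) selection, fragmentation, PCR and strand-specific paired reads for the bulk libraries. The labels add a tagmentation kit that the methods give for full-length amplified cDNA, so which preparation made these libraries is not settled in the sources used here. The authors deposited FPKM per gene, and the submitters' notes name featureCounts 2.0.3, edgeR 3.40.2 and genome build mm10. The aligner, the annotation release and the treatment of strand and of multiply mapped reads are not given in the sources used here. FPKM times gene length gave whole fragments in 100.0% of values (tolerance 0.05), which gave the depths, and their number limits the precision of each value.

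Genes with at least 1 FPKM in at least 3 of the 6 libraries were tested with limma 3.58.1 (R 4.3.3) on log2(FPKM + 1), with a trend, over the 12 libraries of the hepatocyte table in 4 groups, and p-values were adjusted by Benjamini-Hochberg. The cholangiocyte table was fitted separately. GC content and transcript sequences came from GENCODE M21, matched by identifier for 10795 of 10806 tested genes. The limma fit and the centring along GC were tested on simulated counts with known changes, and the other steps were not. The members and the gene lists were chosen with earlier results of these data known. Tables were read with pandas 2.3.3.

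Genes are named by rule. The rule takes every gene past the adjusted threshold, up to 10 in each direction by smallest p among non-overlapping genes of at least 5 FPKM, the most abundant and the smallest-p member of each list in each direction, a set of markers, and the 10 steadiest genes of at least 100 FPKM.

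A figure legend of the study ties replicate numbers to mice, and its methods state independent cultures. Deviations from the group means correlated at -0.0057, 0.0054 and 0.018 for the same-numbered P5 and P10 libraries, so the numbers were not treated as pairs. The fit with the replicate number as a block is given as an alternative. Labels do not say which cultures came from separate animals, so p-values measure the spread between these libraries, which may be technical.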

Additional observations from a re-analysis of the deposited data

Results flagged for a closer look

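For 8 of the 20 genes named by smallest p, every P10 library moved one way against every P5 library in the hepatocyte organoid table and the opposite way in the cholangiocyte organoid table, and the difference between the tables was not tested. Of all 1696 genes whose passages did not overlap in the hepatocyte table and that were tested in the cholangiocyte table, 731 did so (43.1%), so 8 of 20 is near the background. Dbi and Prdx1 were higher at P10 in hepatocyte organoids, by 0.23 and 0.13, and lower in cholangiocyte organoids, at -0.72 and -0.61. Rplp2, Rps18, Chpf2 and Agrn were lower in hepatocyte organoids, at -0.14, -0.34, -0.21 and -0.097, and higher in cholangiocyte organoids, by 0.67, 0.88, 0.80 and 0.21. S100a11 and Srebf1 stood at -0.12 and -0.16 in the first and at 0.16 and 0.11 in the second. The tables were normalised separately, so levels are not compared between them.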

How the results depend on the processing

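The count of 3 genes past the adjusted threshold was the least stable value. It was 0 with all 19335 genes above 0 FPKM, 0 with the 6 libraries alone, 0 after thinning to equal depth, 1 without the trend, 6 centred along gene length, 27 by voom on the recovered fragments and 19 by voom centred along GC. With the replicate block it was 0, with 1235 unadjusted calls, and with the block and GC centring it was 0 again, with 940. Same-numbered libraries did not deviate together, so the block takes degrees of freedom without pairing. Leaving out 1 library at a time gave 0 to 1. Rpl39 kept its direction in every setting, with the range 0.33 to 0.43 when libraries were left out. AC161199.1 moved from -0.74 to -1.40 with a pseudocount of 0.1 FPKM, -1.17 as TPM and -1.47 by voom. Voom called 2 of the 3, without AC161199.1, and 10 of its 27 were ribosomal protein genes. The unadjusted count stayed between 880 and 1765, the higher value with all genes above 0 FPKM. Intervals within 1.2-fold numbered 9377, and 16157 with that wider set, with 8833 to 8976 when libraries were left out. The number fell to 8137 with a pseudocount of 0.1 FPKM and to 8393 as TPM. By voom it was 7993, and 8173 by voom centred along GC. The GC slope difference of -0.045 lay between -0.054 and -0.037 without single libraries. The gap between passages in Spearman distance fell from 0.000355 to 0.000187 along GC, and its p cannot go lower than the smallest value that 10 splits allow. Among named genes Sult1d1 reversed, at -0.0021 by voom centred along GC. Of 1100 recomputed medians 141 moved by more than the spread between replicates. For the median gene the 95% interval reached 0.10 to either side of the estimate on the log2 scale, which limits what 3 libraries a group can show.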
